A study of Mus musculus with 22 samples.

Results

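The miR-29 family of miRNAs was examined in a mouse model of high-grade serous carcinoma that starts in the fallopian tube. Its members were taken by name, as the probes for mmu-miR-29a, mmu-miR-29b and mmu-miR-29c, without star strands. They were 3 of the 566 mouse miRNA probes on the panel, which held 626 probes in all, and each was read in 22 samples. miRNAs are short RNAs that pair, mainly through bases 2 to 8 (the seed), with sites in target mRNAs and lower their translation or stability. The miR-29 family is known for targeting mRNAs of collagens and other matrix proteins, and of the DNA methyltransferases Dnmt3a and Dnmt3b. In many tissues it limits matrix deposition, and it is often described as low in tumors and in fibrosis.

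The samples were 5 control tubes (CT), 5 tubes of doxycycline-induced mice (FT), 5 metastatic tumors (M), 3 plasma samples of control mice (CS) and 4 plasma samples of induced mice (TS). In this model doxycycline switches on Cre recombinase in Pax8-expressing cells, which include the secretory cells of the tube. Recombination was thus not directed to the other cells of the samples. The control mice were not induced and carried their conditional alleles unrecombined, with Brca1 fl/fl in CT1 and CT3, Brca1 fl/+ in CT2, Brca2 fl/fl in CT4 and Brca2 fl/+ in CT5. The induced tubes were Brca1 -/- in FT2, Brca2 -/- in FT4 and Brca2 -/+ in FT1, FT3 and FT5. The tumors were Brca2 -/- in M1 and M3, Brca1 -/+ in M2 and M6, and Brca2 -/+ in M4. M1 to M4 were peritoneal metastases and M6 was an ovarian tumor. Plasma was drawn from mice that also gave a tube, with TS1, TS2, TS3 and TS4 matching FT2, FT3, FT4 and FT5, and each CS sample matching the CT sample of its number. The labels name serum as the source of some of these samples and plasma as the tissue, and plasma is used here. Also, 2 mice gave both an FT and an M sample, and which ones is not given in the sources used here. The study took 3 other metastatic tumors from an earlier publication. Those sources do not say which ones either, so the origin of the tumors was not modelled. The ages of the mice are likewise not given there. Each group therefore mixed genotypes, and no genotype was tested on its own.

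A tissue sample held 70164 to 598321 miRNA counts in total and a plasma sample 18350 to 269005. The normalized counts given below are counts scaled to a geometric mean over abundant miRNAs, the top 100 for tissue and the top 30 for plasma. Tissue and plasma were scaled separately, so their levels were not set against each other. Counts of different probes depend on the probe, so members were compared with each other only through how their difference changed between samples. In the control tubes, all 5 listed epithelial miRNAs lay above the level of the negative controls (their mean plus 2 SD in the same sample) in every sample. In every control plasma sample, so did all 4 erythrocyte and all 3 liver miRNAs, which plasma is known to carry.

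The mature sequences are shown because the members share 1 seed and differ by few bases, which bears on how separately the probes read them. They are from RefSeq (build GRCm38.p6), matched to the 3p arm of each member, and capitals mark the seed, bases 2 to 8.
miR-29a: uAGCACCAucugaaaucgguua
miR-29b: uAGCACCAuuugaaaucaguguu
miR-29c: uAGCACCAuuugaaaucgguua
The seed AGCACCA pairs with UGGUGCU in a target, and 3 of 1679 mature mouse miRNA names in the table (0.179%) held it, which were these 3. Counted from 1 at the 5′ end, miR-29a and miR-29c had 21 of 22 bases in common and differed at C10U. miR-29b, with 23 bases, differed from miR-29c at G18A, U21G and A22U over the 22 bases compared. How far each probe also reads the other members was not tested.

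The members come from a pair of gene clusters. miR-29a lies at chr6:31062673-31062694 on the minus strand, in Mir29a, with Mir29b-1 (mature miR-29b at chr6:31063025-31063047) 275 bases away. miR-29c lies at chr1:195037600-195037621 on the plus strand, in Mir29c, with Mir29b-2 (mature miR-29b at chr1:195037091-195037113) 426 bases away. The hairpins of the chromosome 1 cluster overlap the long non-coding RNA gene A330023F24Rik. Mature miR-29b is the same from both of its genes, so its count is a sum over both clusters.

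All 3 members fell in the metastatic tumors against the control tubes, miR-29b and miR-29c by more than miR-29a. None passed the test in the induced tubes against the control tubes, where the 5 induced tubes ranged from far below to above the controls. None passed in plasma. The sum of the 3 made up 3.20% to 6.33% of all miRNA counts in CT (median 5.12%), 0.476% to 10.9% in FT (median 1.63%) and 0.450% to 1.36% in M (median 0.695%). In plasma it was 0.801% to 1.86% in CS (median 0.835%) and 0.406% to 1.38% in TS (median 1.04%).

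**Figure D1:**
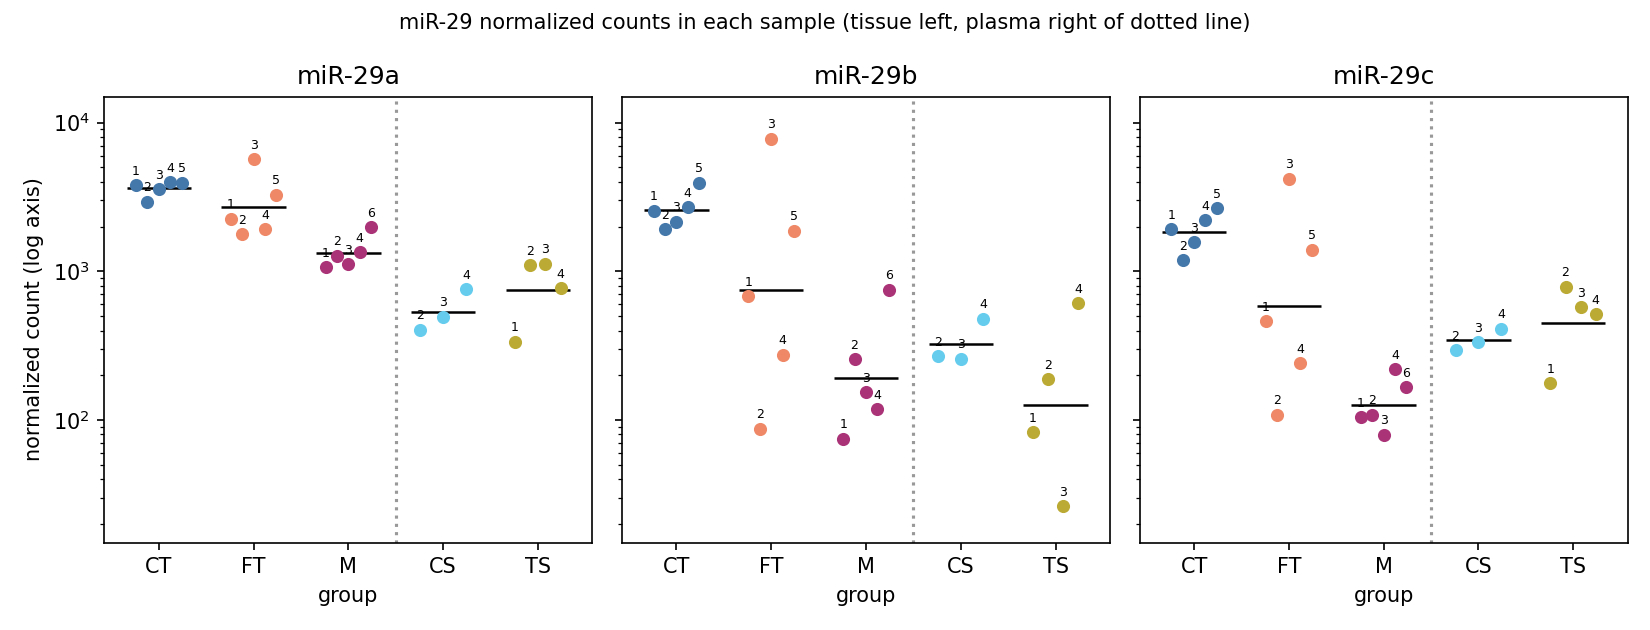
Normalized counts (log axis) of miR-29a, miR-29b and miR-29c in each sample, by group, with sample numbers beside the points and a bar at each group's geometric mean; tissue and plasma were scaled separately. All M points of each member lie below all CT points, and FT runs from 87.6 to 7806 for miR-29b.

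miR-29a, which is transcribed with Mir29b-1, was even across the control tubes. Its normalized counts were 3791, 2939, 3556, 3976 and 3959 in CT1 to CT5 (3644 ± 429, SD, n = 5). In the tumors they were 1062, 1274, 1116, 1346 and 1978 in M1, M2, M3, M4 and M6 (1355 ± 367, n = 5). Every tumor thus lay below every control tube, and the highest tumor, M6, was the ovarian one.

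miR-29b had normalized counts of 2560.2, 1923, 2156, 2692 and 3959 in CT1 to CT5 (2658 ± 790, SD, n = 5). In the tumors they were 74.9, 256, 154, 118 and 752 in M1, M2, M3, M4 and M6 (271 ± 277, n = 5). The groups did not overlap, and M6 again stood highest among the tumors. In M1 the deposited count of 28 did not exceed the level of the negative controls (44.7).

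miR-29c, which is transcribed with Mir29b-2, had normalized counts of 1923, 1186, 1569, 2201 and 2656 in CT1 to CT5 (1907 ± 566, SD, n = 5). In the tumors they were 104, 109, 79.9, 219.9 and 167 in M1, M2, M3, M4 and M6 (136 ± 56.7, n = 5). All 5 tumors were far below all 5 control tubes, and here M4, not M6, was highest. The M1 count of 39 also did not exceed the level of the negative controls.

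In the edgeR quasi-likelihood test over all 566 miRNAs, miR-29a fell by 1.43 on the log2 scale in M against CT (SE 0.416, 95% interval -2.30 to -0.55, Benjamini-Hochberg adjusted p = 0.0288). miR-29b fell by 3.29 (SE 0.628, interval -4.61 to -1.96, edgeR adjusted p = 0.00155). miR-29c fell by 3.81 (SE 0.507, interval -4.88 to -2.74, edgeR adjusted p = 0.000104). These were 3 of 3 members lower, where 24 of all 566 miRNAs (4.24%) were called lower and 58 (10.2%) higher. All 3 also had groups that did not overlap, as 12.5% of all miRNAs did, 5.12% of all with M lower. The exact two-sided permutation test on log2 normalized counts gave p = 0.00794 for each, the smallest that 5 samples against 5 allow.

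The 566 miRNAs together had a median log2 fold change of 0.29 in this comparison, and it moved between -0.01 and 0.66 over 7 scalings. Relative to that median, miR-29a was lower by 1.72 (log2 fold change -1.52 to -1.82 over the scalings), miR-29b was at -3.58 (-2.87 to -4.002) and miR-29c at -4.10 (-3.96 to -4.45). The call for miR-29a was the least firm. It was lost with TMM (adjusted p = 0.0502), with scaling to miR-425 (0.104) or to the ligation controls (0.545), and with CT, FT and M fitted together (0.120). The replicate block also ended it (edgeR adjusted p = 0.118), but label numbers were not taken to pair samples, so that result says little. The call for miR-29a was also lost without any 1 of the 5 control tubes, without M2 or without M3 (edgeR adjusted p = 0.0526 to 0.0777). For miR-29b, scaling to the ligation controls ended the call (edgeR adjusted p = 0.116), and miR-29c passed under all 15 alternatives and without each sample in turn.

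**Figure D2:**
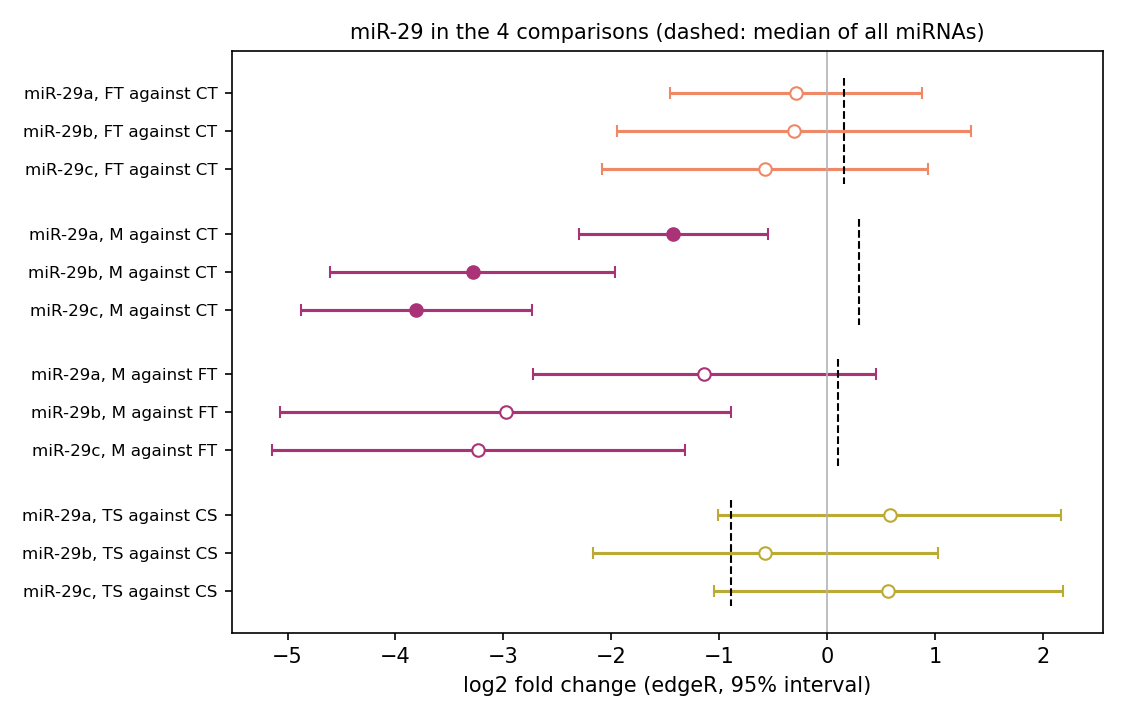
Log2 fold change of each member in the 4 comparisons from edgeR, with 95% intervals; filled points have an adjusted p under 0.05 and the dashed line is the median of all 566 miRNAs. The 3 filled points are the members in M against CT, at -1.43, -3.29 and -3.81.

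In the induced tubes, each member spread widely and no group difference passed the test. For miR-29a, normalized counts were 2265, 1781, 5682, 1922 and 3279.8 in FT1 to FT5 (2986 ± 1617, SD, n = 5), a span of 3.19-fold against 1.35-fold in CT. For miR-29b they were 679, 87.6, 7806, 274 and 1879 (2145 ± 3240.3), a span of 89.1-fold against 2.06-fold. For miR-29c they were 463, 109, 4190.4, 241 and 1395 (1280 ± 1703), a span of 38.5-fold against 2.24-fold.

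The induced tubes stood in the same order for all 3 members, from FT2 through FT4, FT1 and FT5 up to FT3. FT3 stood above all 5 control tubes for each, while FT1, FT2 and FT4 stood below all of them for each. FT5 lay below all control tubes for miR-29b and among them for miR-29a and miR-29c.

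The edgeR log2 fold changes of FT against CT were -0.29 for miR-29a (95% interval -1.46 to 0.88, edgeR adjusted p = 0.853), -0.31 for miR-29b (-1.95 to 1.33, edgeR adjusted p = 0.881) and -0.58 for miR-29c (-2.09 to 0.93, edgeR adjusted p = 0.781). These intervals include both no change and changes of more than 1 log2 unit. With edgeR, 0 of 3 members passed at an adjusted or an unadjusted p under 0.05, and DESeq2 and limma also called 0. Over all miRNAs edgeR called 0.177%, and 7.24% at an unadjusted p, and DESeq2 called 2.47% of the 364 it gave an adjusted p. The groups overlapped for all 3 members, and 0.53% of all miRNAs had groups that did not. The test compares arithmetic means, in which FT3 weighs heavily. The differences of mean log2 normalized counts were -0.42, -1.77 and -1.64 for miR-29a, miR-29b and miR-29c (exact permutation p = 0.198, 0.151 and 0.135). Without FT3 the log2 fold changes were -0.66, -1.86 and -1.79, the lowest with 1 sample left out.

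Other RNAs moved with miR-29 among the induced tubes. The summed normalized count of 5 miRNAs of ciliated epithelium (the measured members of the miR-34b/c and miR-449 families) was 397, 94.7, 1774, 123 and 1707 in FT1 to FT5, against 312 to 3767 in CT. It was lower in FT1, FT2 and FT4, the tubes with low miR-29, than in FT3 and FT5. That of the endothelial miR-126-3p and miR-126-5p was 12127, 55041, 3205, 22606 and 4421, so in FT1, FT2 and FT4 it was above the 4224 to 6683 of CT. Smooth muscle and stroma miRNAs summed to 5750, 4823, 10795, 3111 and 16868, lower in FT1, FT2 and FT4 than in FT3 and FT5. In CT they summed to 4713 to 13280, so only FT4 was below the controls. Epithelial miRNAs summed to 15976, 18151, 8247, 45392 and 8742, against 9285 to 11038 in CT, so they were high in FT1, FT2 and FT4. Liver miRNAs summed to 68.4, 104, 1342, 87.5 and 233, against 66.2 to 93.7 in CT, so FT3 and FT5 were raised and the other induced tubes were near the controls. No liver miRNA was above the negative controls in all CT or in all FT samples. The erythrocyte and leukocyte sums did not split FT1, FT2 and FT4 from FT3 and FT5. The summed normalized count of the 4 housekeeping mRNAs on the panel was 24636, 130849, 1247, 51636 and 3557, against 2199 to 8485 in CT. The part of cell composition and of RNA quality in the spread of miR-29 was not tested. In these bulk samples, fewer cells of a type and less RNA per cell cannot be told apart.

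The tumors lay below the induced tubes on average, but the groups overlapped for each member. The edgeR log2 fold changes of M against FT were -1.14 for miR-29a (95% interval -2.73 to 0.45, edgeR adjusted p = 0.960), -2.98 for miR-29b (-5.07 to -0.89, edgeR adjusted p = 0.169) and -3.23 for miR-29c (-5.15 to -1.32, edgeR adjusted p = 0.0629). With edgeR, 0 of 3 passed after adjustment and 2 of 3 at an unadjusted p under 0.05, where 1.59% and 8.3% of all miRNAs did. DESeq2 called 1 of 3, miR-29c, with 16.0% of the 244 miRNAs it gave an adjusted p, limma called 0, and the methods' t-test, unadjusted, called 1 (miR-29a), with 5.83% of all miRNAs. Groups did not overlap for 1.41% of all miRNAs. The exact permutation tests gave p = 0.0238 for miR-29a, 0.159 for miR-29b and 0.0317 for miR-29c, each unadjusted.

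FT2 and FT3 decided much of this comparison. FT2 lay at the tumors' level for miR-29b (87.6) and miR-29c (109). FT4 (274) and FT1 (679) also lay within the tumors' range for miR-29b, below M6 (752). Without FT2, miR-29b passed (log2 fold change -3.29, edgeR adjusted p = 0.0249), as did miR-29c (-3.53, edgeR adjusted p = 0.00766). miR-29b also passed without M6 (-3.82, edgeR adjusted p = 0.0490) and miR-29c without M4 (-3.47, edgeR adjusted p = 0.0457). Without FT3 the log2 fold changes were -0.77 for miR-29a, -1.43 for miR-29b and -2.02 for miR-29c, the smallest with 1 sample left out, and none passed. The FT2 count of miR-29b (37) lay just above the level of its negative controls (36.1). M against CT and M against FT share the M samples, and mice that gave both an FT and an M sample were not accounted for.

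The balance between the members differed between tumors and control tubes. It was measured as the difference of log2(count + 1) between a pair of members in the same sample, which no scaling changes. For miR-29a minus miR-29c this was 0.98, 1.31, 1.18, 0.85 and 0.58 in CT1 to CT5 (0.98 ± 0.29, SD, n = 5). In M1, M2, M3, M4 and M6 it was 3.31, 3.54, 3.76, 2.60 and 3.57 (3.36 ± 0.45, n = 5). The lowest tumor was thus well above the highest control tube, and the difference of 2.38 had an exact two-sided permutation p of 0.00794, or 0.0476 adjusted over the 12 such tests run.

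For miR-29a minus miR-29b the tumors were likewise higher, by 2.27 (exact permutation p = 0.00794, adjusted 0.0476). The values were 0 to 0.72 in CT (0.49 ± 0.28, n = 5) and 1.39 to 3.78 in M (2.76 ± 0.95, n = 5). The value of 0 is CT5, in which both probes had a deposited count of 1690.

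For miR-29b minus miR-29c the tumors and control tubes overlapped, at -0.88 to 2.17 in M (0.60 ± 1.25, n = 5) and 0.29 to 0.70 in CT (0.49 ± 0.16, n = 5), with exact permutation p = 0.865. So 2 of the 3 pairs separated M from CT without overlap, where 37.2% of all pairs among miRNAs averaging 50 counts or more did. With 1 sample left out the differences were 2.28 to 2.56 for miR-29a minus miR-29c and 2.01 to 2.61 for miR-29a minus miR-29b, and the adjusted p was then 0.0952 throughout, with both at the smallest unadjusted p that 4 samples against 5 allow.

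In the induced tubes the balance spanned the range from control tubes to tumors. miR-29a minus miR-29c was 2.29, 4.002, 0.44, 2.99 and 1.23 in FT1 to FT5 (2.19 ± 1.41, n = 5). The ratio of the counts was 16.3 in FT2, above the highest tumor ratio of 14.0, and 1.36 in FT3, below the lowest control ratio of 1.49. Neither FT against CT (difference 1.21, exact permutation p = 0.119, adjusted 0.362) nor M against FT (1.16, exact permutation p = 0.127, adjusted 0.362) passed. For miR-29a minus miR-29b the corresponding differences were 1.35 (exact permutation p = 0.151, adjusted 0.362) and 0.92 (exact permutation p = 0.341, adjusted 0.512). No pair of members separated these groups, as 1.48% of all pairs did in FT against CT and 5.52% in M against FT.

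**Figure D3:**
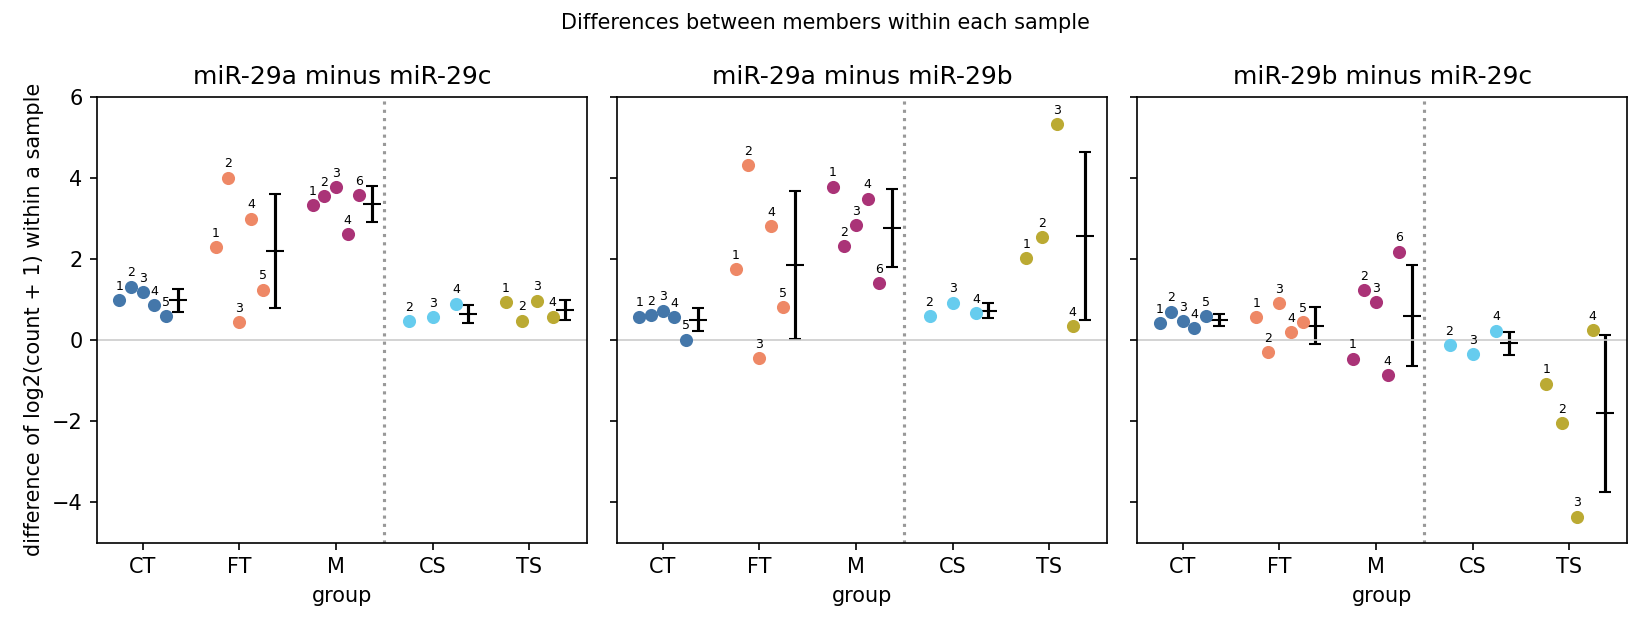
Difference of log2(count + 1) between a pair of members within each sample, by group, with sample numbers beside the points; bars are the mean and SD. The M points lie above all CT points for miR-29a minus miR-29c (2.60 to 3.76 against 0.58 to 1.31) and for miR-29a minus miR-29b, and overlap with CT for miR-29b minus miR-29c.

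In plasma, miR-29a and miR-29c kept a narrow range of ratios to each other. Relative to both, miR-29b was lower in TS1, TS2 and TS3 than in TS4 and the control samples. Normalized counts of miR-29a were 406, 495 and 762 in CS2 to CS4 and 336, 1095, 1123 and 768 in TS1 to TS4. Those of miR-29c were 295, 332 and 412 in CS2 to CS4 and 176, 789, 576 and 516 in TS1 to TS4. For both, TS1 was below all CS samples and the other three TS samples were above them.

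miR-29b had normalized counts of 269.9, 259 and 481 in CS2 to CS4 and of 82.7, 188, 26.3 and 609 in TS1 to TS4. TS4 was above all CS samples and the other three TS samples were below them. The TS3 count of 14 did not exceed the level of its negative controls (36.0).

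No member passed the test in TS against CS. The edgeR log2 fold changes were 0.58 for miR-29a (95% interval -1.01 to 2.17, edgeR adjusted p = 0.700), -0.57 for miR-29b (-2.17 to 1.03, edgeR adjusted p = 0.705) and 0.57 for miR-29c (-1.05 to 2.18, edgeR adjusted p = 0.708). Over all miRNAs edgeR called 0%, with 7.42% at an unadjusted p under 0.05 and DESeq2 called 12 of the 176 it gave an adjusted p (6.82%), none of them a member. Groups did not overlap for 0 of 3 members and 5.3% of all miRNAs. The median over all miRNAs was -0.89 and ran from -0.91 to 0.38 with the scaling, and the sign for miR-29b turned with TMM, with scaling to miR-425 or to the ligation controls, and with DESeq2. The exact permutation p on log2 normalized counts was 0.4 for miR-29a, 0.286 for miR-29b and 0.514 for miR-29c, and 4 samples against 3 cannot go below 0.0571.

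The ratio of the miR-29a to the miR-29c count was 1.38, 1.49 and 1.85 in CS2 to CS4 and 1.91, 1.39, 1.95 and 1.49 in TS1 to TS4. All 7 plasma samples thus lay within 1.38 to 1.95, a range that also held CT4 and CT5 but no other tissue sample. CT1 (1.97) and FT3 (1.36) lay just outside it. miR-29a minus miR-29b was 0.58 to 0.92 in CS and 2.01, 2.53, 5.32 and 0.33 in TS1 to TS4 (exact permutation p = 0.229, adjusted 0.392). No pair of members separated TS from CS, as 9.27% of all pairs did. As a description, Pearson's r of log2 normalized counts over the 7 plasma samples was 0.950 for miR-29a with miR-29c, -0.14 for miR-29a with miR-29b and 0.0371 for miR-29b with miR-29c. Over the 15 tissue samples the corresponding values were 0.963, 0.949 and 0.943, and these samples share the differences between the groups.

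In the 4 induced mice that gave both a tube and plasma, each member's share of miRNA counts ranged more widely in the tubes than in plasma. The share of miR-29a was 0.428% to 3.51% in the tubes and 0.229% to 0.633% in plasma. That of miR-29b was 0.0211% to 4.82% in the tubes and 0.0148% to 0.443% in plasma. miR-29c made up 0.0262% of miRNA counts in FT2 and 0.120% in TS1 of the same mouse, and 0.0561% in FT4 and 0.325% in TS3. In the mouse of FT3 and TS2 it was 2.59% in the tube and 0.422% in plasma, and in that of FT5 and TS4 0.783% and 0.376%. The 4 mice stood in the same order in both by this share, but not for miR-29a or miR-29b, nor for miR-29c by normalized count (TS3 at 576 above TS4 at 516, FT4 at 241 below FT5 at 1395). The effect of induction in tubes minus that in plasma was -2.03 on the log2 scale for miR-29c (exact permutation p = 0.0838, adjusted 0.299 over 6 tests), -0.91 for miR-29a (p = 0.145, adjusted 0.299, exact) and -0.43 for miR-29b (p = 0.810, exact). None passed, and the test did not take account of the shared mice.

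The miRNAs most like miR-29 over the 15 tissue samples included markers of ciliated cells and of smooth muscle. Among 138 miRNAs averaging 50 counts or more in tissue, miR-34b-5p, a miRNA of multiciliated cells, had the highest Pearson's r with miR-29a (0.918, Spearman's rho 0.861) and miR-29c (0.939, rho 0.864). miR-204, encoded in an intron of Trpm3, came second for both (r 0.885 and 0.923), and miR-143, abundant in smooth muscle, followed (0.872 and 0.914). For miR-29b the order was miR-30b (r 0.930, rho 0.893), miR-34b-5p (0.875) and miR-30c (0.842). These values are a description over samples that share group differences and scaling.

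**Figure D4:**
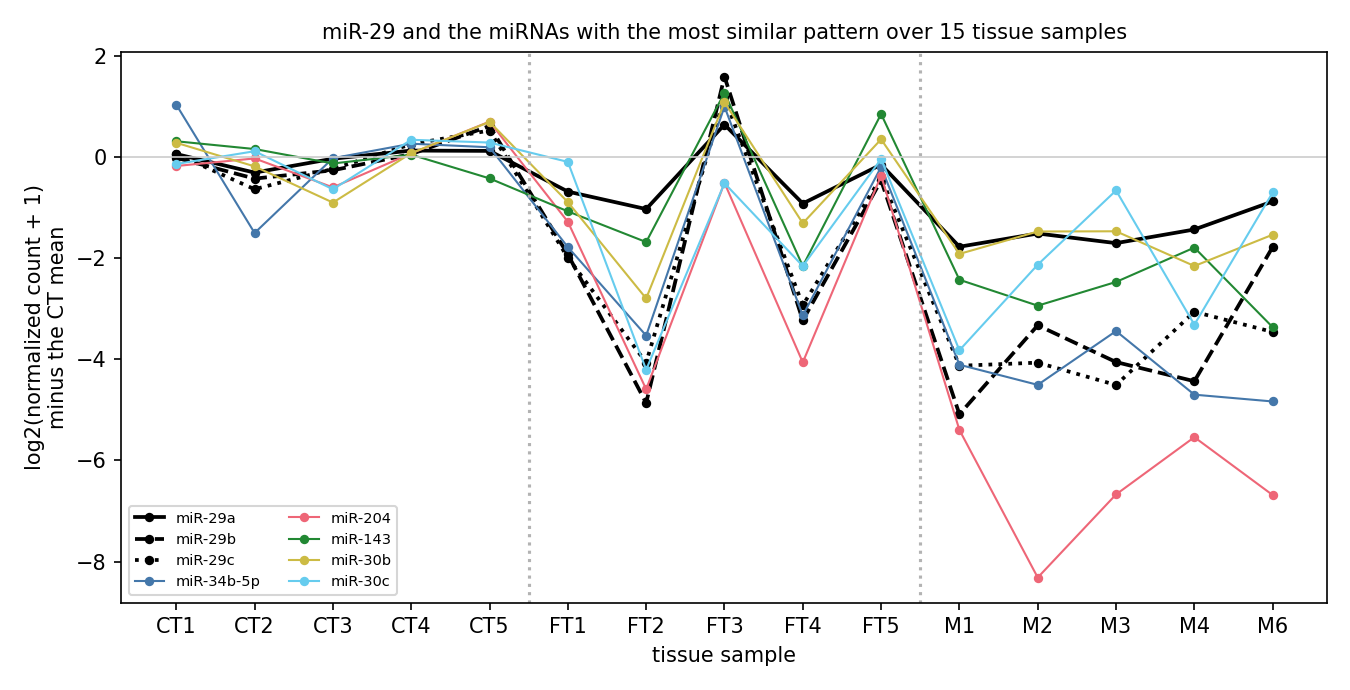
Log2(normalized count + 1) minus its CT mean in the 15 tissue samples, for the 3 members (black) and the 5 miRNAs named as most alike (colors); lines join samples as a guide only. All 8 dip in FT2 and FT4, and in M miR-204 lies lowest and miR-29a among the highest.

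In the tumors, the 5 miRNAs differed in how far they could be measured. miR-34b-5p had normalized counts of 390 ± 207 in CT, 228 ± 275 in FT and 17.2 ± 7.91 in M (SD, n = 5 each). miR-204 had 1574 ± 544 in CT, 601 ± 522 in FT and 19.5 ± 13.1 in M. Neither miR-34b-5p nor miR-204 lay above the negative controls in any of the 5 tumors, so both fell in M against CT (edgeR adjusted p = 7.24e-05 and 1.85e-05) by amounts that the tumor counts only bound. miR-143 had 2523 ± 474 in CT, 2611 ± 2494 in FT and 439 ± 182 in M, so its FT mean was not below that of CT. miR-30c had 2577 ± 641 in CT, 1451 ± 1052 in FT and 828 ± 692 in M. miR-30b had 164 ± 62.4 in CT, 138 ± 125 in FT and 47.3 ± 9.74 in M, above the negative controls in 3 of 5 tumors. In M against CT, miR-143 fell by 2.52 and miR-30b fell by 1.78 on the log2 scale (edgeR), while miR-30c (-1.64, edgeR adjusted p = 0.0780) did not pass.

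Among the listed cell types, markers of ciliated cells and of smooth muscle and stroma were mostly lower in M than in CT. For the counts that follow, 4.24% of all miRNAs were called lower. Of 5 measured ciliated-cell miRNAs 4 fell (miR-449a, miR-34c and both arms of miR-34b), with a median log2 fold change of -3.998 against 0.29 over all miRNAs. Their summed normalized count was 312 to 3767 in CT and 27.9 to 88.3 in M, and none of the 5 lay above the negative controls in any tumor, so the tumor counts only bound these falls. Of 5 miRNAs of smooth muscle and stroma 3 fell (miR-1, miR-143 and miR-145, median -2.005), with a summed normalized count of 4713 to 13280.4 in CT and 626 to 3821 in M, and miR-133a and miR-133b were not above the negative controls in any tumor.

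Of 5 epithelial miRNAs of the miR-200 family 1 fell (miR-141, median 0.01), where 4.24% of all miRNAs were called lower. The sum of these 5 was 9285 to 11038 in CT and 242 to 42009.8 in M. In the other direction, 1 of 5 leukocyte miRNAs rose (miR-223), as did 1 of 2 endothelial (miR-126-3p), 1 of 4 erythrocyte (miR-486) and 1 of 3 liver miRNAs (miR-122), where 10.2% of all miRNAs were called higher. The part of these cell types in the lower miR-29 of the tumors was not tested. The housekeeping mRNA sum was also higher in M, at 16335 to 141206 against 2199 to 8485 in CT, and its part was not tested either.

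Other miRNAs known to act on the same pathways as miR-29 were counted from 2 lists. Of 7 miRNAs reported to target DNA methyltransferases, 3 fell in M against CT and 0 rose, at a median log2 fold change of -0.37 against 0.29 over all miRNAs. These were miR-101a (-1.44, not above the negative controls in any tumor), miR-143 (-2.52, edgeR adjusted p = 0.00119) and miR-148a (-1.80, edgeR adjusted p = 0.0383), the last known to target Dnmt1 and Dnmt3b. Called lower were 4.24% of all miRNAs.

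Of 12 miRNAs of matrix and TGF-beta regulation, miR-21, which promotes fibrosis, rose by 2.30 (edgeR adjusted p = 0.00472) and miR-30a fell by 1.41 (edgeR adjusted p = 0.0340) in M against CT. The other 10 did not pass, and the median was -0.04. Over all miRNAs, 10.2% were called higher and 4.24% lower. In FT against CT, in M against FT and in TS against CS, 0 of the 7 and 0 of the 12 passed with edgeR after adjustment. At an unadjusted p under 0.05, edgeR had 0 of 7 and 1 of 12 in FT against CT, 2 of 7 and 1 of 12 in M against FT, and 1 of 7 and 1 of 12 in TS against CS, where 7.24%, 8.3% and 7.42% of all miRNAs did. DESeq2 called 0 and 0, 2 and 1, and 1 and 0 in the same order, where it called 2.47%, 16.0% and 6.82% of the miRNAs it tested. The mRNAs of collagens and DNA methyltransferases were not measured by this panel.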

How the data were processed

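Counts were read in tubes, tumors and plasma of the 5 groups, named by the sample labels, on the NanoString nCounter mouse miRNA panel, with 100 ng of RNA for tissue and 10 ng for plasma. The values deposited by the authors are barcode counts, whole numbers from 1 up, for 626 probes, and 0 columns were unmatched to a sample. Whether any correction to the controls was made before deposit is not given in the sources used here. The study's normalization was rebuilt from the counts, as the geometric mean of the 100 miRNAs highest over the tissue samples, or 30 over the plasma samples. These geometric means served as library sizes in edgeR (4.0.16, quasi-likelihood test, all 566 mouse miRNAs, Benjamini-Hochberg, threshold 0.05, R 4.3.3). As an alternative, the methods' t-test was run on the same normalized values after a log2 transform. Exact permutation tests used log2(normalized count + 1), as did correlations (scipy 1.17.1). Differences between members used log2(count + 1) of the deposited counts.

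Alternatives were other scalings (TMM, quantile, miR-425, ligation controls, the most abundant miRNAs without the 3 members, negative controls subtracted), DESeq2 (1.42.0), limma (3.58.1), minimum mean counts of 20 or 50, the 3 tissue groups fitted together, a replicate block and each sample left out in turn. Ranking the most abundant miRNAs within each sample was chosen after seeing the data. The tests were checked on simulated data. For edgeR, 200 miRNAs were changed by 3 log2 units, with the same dispersion for all miRNAs. That check did not cover smaller changes or a spread as wide as that of miR-29b in the induced tubes. Same-numbered samples did not deviate together in every pair, so numbers were not taken to pair samples. Named are the 3 members, for each the 3 miRNAs most correlated with it among those with a mean count of at least 50, and members of the lists where a result turns on them. The members and lists were chosen with earlier results of these data known. 1 tumor and 1 control plasma sample, excluded by the study, were not analysed here. Tube and plasma samples of 1 mouse were not modelled as such, and p-values measure the spread between samples of mixed genotype. Sample depths are given above, and a single count near the negative controls sets only a bound. Further alleles of the model are not reported here.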

Additional observations from a re-analysis of the deposited data

Results flagged for a closer look

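In 3 cases 1 sample stood apart from the other 4 of its group, by a gap to its nearest neighbour above Dixon's critical value relative to the group's range. Chance alone marks about 1 in 20 groups in this way if the values are normally distributed, which was not checked. The rule was applied to several groups, for the members and their pair differences, so some marks may arise by chance. The normalized counts were used here without a log2 transform, so the rate may not hold for them. miR-29b had a normalized count of 7806 in FT3, with 1879 in the next tube. miR-29b had a normalized count of 752 in M6, the ovarian tumor, with 256 in the next tumor. miR-29a minus miR-29b was 0 in CT5, with 0.56 in the next control tube, since both probes had a deposited count of 1690 there. Over all 22 samples there were 4 pairs of miRNAs with the same count of at least 1000, in 4 samples.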

How the results depend on the processing

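In M against CT, the log2 fold change of each member stayed negative under all 15 alternatives. That of miR-29a lost its call with TMM (-1.44), scaling to miR-425 (-1.11) or the ligation controls (-1.08), the tissue groups fitted together (-1.43) and the replicate block (-1.57), and that of miR-29b with the ligation controls (-2.42). With 1 sample left out, miR-29a was at -1.60 to -1.35, miR-29b at -4.13 to -3.05 and miR-29c at -4.04 to -3.66, and the pair differences at 2.28 to 2.56 (miR-29a minus miR-29c), 2.01 to 2.61 (miR-29a minus miR-29b) and -0.28 to 0.48 (miR-29b minus miR-29c). The last was negative without M2 (-0.05) or M6 (-0.28). In M against FT, miR-29a passed in the methods' t-test, unadjusted (-1.03), and miR-29c with the scaling that leaves out the 3 members (-3.40), with DESeq2 (-3.25) and with the groups fitted together (-3.23). With 1 sample left out the members were at -1.32 to -0.77, -3.82 to -1.43 and -3.53 to -2.02, and miR-29b minus miR-29c at -0.15 to 0.61, negative without M6. In FT against CT, miR-29a turned to 0.026 with miR-425 and 0.10 with the ligation controls, and miR-29b to 0.000316 without FT2; with 1 sample left out the members were at -0.66 to -0.15, -1.86 to 0.000316 and -1.79 to -0.28, and miR-29b minus miR-29c at -0.27 to 0.030, positive without FT2. In TS against CS, miR-29b turned to 0.35 with TMM, 0.56 with miR-425, 0.61 with the ligation controls and 0.48 with DESeq2; with 1 sample left out the members were at 0.40 to 0.88, -1.76 (without TS4) to -0.20 (without TS3) and 0.28 (without TS2) to 0.85, and miR-29a minus miR-29b at 0.90 (without TS3) to 2.56. With 1 sample left out, miR-29a minus miR-29c was 0.76 (without FT2) to 1.65 (without FT3) in FT against CT and 0.73 (without FT3) to 1.62 (without FT2) in M against FT, and miR-29a minus miR-29b 0.73 to 1.92 and 0.35 to 1.54, at the same samples. The causes were not tested. The miRNAs called in FT against CT numbered 1, but 2 with TMM, 6 with negative controls subtracted, 9 with DESeq2 or the unadjusted t-test, 0 with quantile, miR-425 or ligation scaling, limma, the adjusted t-test, either count minimum or the replicate block, and 0 to 12 with 1 sample left out (12 without FT3). In M against CT they numbered 82, but 151 with TMM, 48 with ligation scaling, 133 with negative controls subtracted, 184 with DESeq2, 32 with the adjusted t-test, 52 fitted together and 50 to 101 with 1 sample left out; the share called higher was 70.7%, but 55.0% with TMM, 49.1% with quantile, 87.5% with miR-425 and 81.2% with ligation scaling. In M against FT they numbered 9, but 5 with quantile or limma, 2 with miR-425 or the replicate block, 14 with the scaling without the members, 39 with DESeq2, 0 and 33 with the adjusted and unadjusted t-test, 23 fitted together and 4 to 33 with 1 sample left out. In TS against CS they numbered 0, but 12 with DESeq2, 24 with the unadjusted t-test and 90 with the replicate block. The replicate block joined samples by number. Same-numbered samples had correlations of -0.37 to 0.32 and were not taken as pairs, so results under the block say little about firmness. The block changed no other call of a member. Counts of miR-29b and miR-29c near the negative controls limit precision in M1, FT2 and CS3. Those of miR-29b do so in M4, TS1 and TS3, and those of miR-29c in M3.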
